A study of Drosophila melanogaster with 14 samples.

Results

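Transcripts listed as induced by neuronal activity were followed through 3 expression tables of adult flies. Whether they came from neurons or followed firing in these libraries was not tested. The set holds 10 genes, chosen with earlier results of these data known and found by FlyBase identifier, of 15490 genes listed in any table. They are the transcription factor genes Hr38, sr, kay and cbt, the kinase gene meng, and CG14186, CG8910, CG17778, CG13055 and CG13868, which carry systematic names and for which no function is given here. Each of the 10 genes was listed in each table, and none of their 140 library values was at or under the floor of 3 counts. Because of how the genes were chosen, their adjusted p-values and counts of calls do not test a list set before these data were seen.

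When a neuron fires repeatedly, calcium entry and the cAMP and ERK kinase pathways activate transcription factors that are already present, and these switch on immediate early genes within minutes. Several of the genes induced first encode transcription factors themselves, so that a brief electrical signal becomes a longer change in gene expression. In flies, Hr38 and sr are widely used as marks of recent activity in the brain.

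Each library was made from polyadenylated RNA of about 50 fruit flies (Drosophila melanogaster), labelled as males 5 to 7 days old, and there were 7 groups of 2 libraries (n = 2 throughout). Samples are labelled as brain, dissected and fixed in paraformaldehyde, whereas the series text speaks of heads. All flies were kept at room temperature, and the labels name no heating step. The study asked which pathways lie downstream of APP, Shal495, TrpA1 and the raised excitability of these flies.

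In the APP table, 1 control carried the driver alone (Elav-Gal4;+;+), the other carried the transgene alone (w;UAS-APP;+), and the experimental flies carried both (Elav-Gal4;UAS-APP;+). The driver Elav-Gal4 acts in neurons, so only the combination is built to express APP, the amyloid precursor protein, there. The Shal495 table compared w1118 flies with flies of genotype w;+;Shal495, a line named for Shal, which encodes a Kv4-type potassium channel. For Shal495 replicate 2 the genotype field reads Shal496, while the title reads Shal495. The TrpA1 table compared w;+;UAS-TrpA1 flies with Elav-Gal4;+;UAS-TrpA1 flies, a combination meant to place TrpA1, a cation channel opened by warmth, in neurons. That table held no library with the driver alone. Whether the libraries within a group stem from independent fly collections is not stated. The p-values therefore reflect the spread between these libraries alone, which may be technical.

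Values are FPKM, fragments scaled by gene length and by library total, as the authors deposited them. Library totals recovered from the values ran from 17162942 to 19911318 fragments. The floor of 3 counts corresponded to 0.0186 to 0.13 FPKM for the 10 genes, and it covers counting error only. Groups were compared only within a table, while spans over the 14 libraries cross the tables and are descriptions. Changes were tested with limma on log2(FPKM + 1) over every gene that reached 1 FPKM in 2 or more libraries of its table, and called at a Benjamini-Hochberg adjusted p under 0.05. The log2 change of a gene is given less the median of all genes tested, which was 0.43 for elav-Gal4 UAS-APP against the driver control, 0.17 against the UAS-APP control and -0.27 for the driver control against the UAS-APP control. It was -0.07 in the Shal495 comparison and -0.16 in the TrpA1 comparison. Calls were made on the change before that subtraction. FPKM ratios are given beside it, because the added 1 makes log2 changes of weakly expressed genes smaller than their ratios.

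The makeup of the RNA differed between groups, most of all in the APP table. A list of 23 neuronal genes, such as nSyb, Syt1 and brp of the synapse, summed to 145 and 146 FPKM with the driver alone, 653 and 476 in the UAS-APP control, and 2050 and 2020 in elav-Gal4 UAS-APP. A list of 16 gut genes, such as trypsins and maltases, summed to 68200 and 69400, 29300 and 32000, and 1060 and 1070 FPKM in the same order. Photoreceptor genes summed to 3020 and 3080, 26700 and 22100, and 31300 FPKM in both, 9 glial genes to 927 and 920, 1020 and 998, and 1610 in both, and 13 fat body genes to 1950 and 1970, 1440 and 1780, and at most 717. No gene of these lists was at 0 in that table. In the Shal495 table the neuronal sum was 1550 and 1540 FPKM in w1118 and 1460 and 1480 in Shal495, and the gut sum ran from 1220 to 1850. In the TrpA1 table the neuronal sum was 655 and 652 FPKM in the UAS-TrpA1 control and 551 and 543 in elav-Gal4 UAS-TrpA1, and the gut sum was 8500 and 8700 against 6980 and 7230. Fewer neurons in a sample and less RNA per neuron cannot be told apart in such bulk libraries.

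Sex-specific genes were also unequal. Yp1, a yolk protein gene that is normally female, stood at 28.2 and 29.4 FPKM in the driver control, 38.2 and 37.2 in Shal495 and 63.7 and 63.2 in the UAS-TrpA1 control, against 0.0352 to 0.426 in the libraries of the other groups. The dosage compensation RNA lncRNA:roX2, which is normally male, was detected in each group, from 6.88 FPKM in the driver control to 96.3 in elav-Gal4 UAS-TrpA1. These 2 genes were picked out after their values were seen. The part of sex and of tissue makeup in the changes below was not tested, except where values relative to the neuronal list are given.

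Among the targeted genes, Shal stood at 19.1 FPKM in Shal495 and 27.4 in w1118, a difference that was not called (adjusted p = 0.0795, limma). TrpA1 stood at 2.69 FPKM in elav-Gal4 UAS-TrpA1 and 1.48 in its control, 1.82-fold higher (adjusted p = 0.0019, limma). It was also 1.82-fold higher in the driver control than in UAS-APP flies (2.88 against 1.58 FPKM, adjusted p = 0.0058, limma), and neither of those carries UAS-TrpA1. The APP transgene itself was not analysed here.

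Relative to total RNA, 9 of the 10 activity-induced transcripts rose in elav-Gal4 UAS-APP against the driver control and cbt fell, where among all genes 56.5% rose and 27.5% were lower. Against the UAS-APP control, 8 rose, CG13868 fell and kay was not called, where 46.1% of all genes rose and 30.7% fell. Both comparisons share the elav-Gal4 UAS-APP libraries. CG13055, counted as risen in both, passed the filter on low values only through those libraries, where it was high. Relative to the neuronal list, in a fit on recovered fragments that was chosen after seeing the data, none of the 10 rose in either comparison, and 7 and 8 fell, where 1.34% and 4.08% of all genes rose and 89.1% and 81.8% fell. Genes of that list did not change alike, so a fall relative to their sum need not be a fall against each of them. Less the median of all genes, their changes relative to total RNA ran from 1.65 to 3.95 against the driver control. Against the UAS-APP control they ran from 0.48 to 3.12. The median change of the 10 transcripts, less the same median, was 0.99 relative to the driver control and 0.47 relative to UAS-APP flies.

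The controls of the APP table differed from each other as well. Relative to total RNA, the driver control stood below the UAS-APP control in 9 of the 10 transcripts and above it in cbt, with all 10 called, although kay turned to 0.07 with median centring, and its call was lost with quantile normalization (adjusted p = 0.538), with only the controls in the fit (0.0643) and without either driver control library (0.146 and 0.0981). Of all genes, 16.2% were higher in the driver control and 50.2% lower. Relative to the neuronal list, 4 of the 10 were called, CG13868, kay, cbt and meng, all higher in the driver control, where 85% of all genes were higher and 1.45% lower.

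In Shal495 none of the 10 transcripts was called by limma, where 2.37% of all genes were called, 228 in number, and 1 of the 10, CG14186, had an unadjusted p under 0.05. Leaving out 1 library gave 25 called genes without w1118 replicate 1, 138 without w1118 replicate 2, 45 without Shal495 replicate 1 and 21 without Shal495 replicate 2, and none of the 10 transcripts in any of these. Voom on recovered fragments also called 0 of the 10. The median change of the 10 less the median of all genes was 0.06. In elav-Gal4 UAS-TrpA1, 5 of the 10 rose, Hr38, CG14186, CG13868, kay and cbt, and CG17778 fell, where 16.6% of all genes rose and 43.9% fell. Relative to the neuronal list in the fit on recovered fragments, 6 of the 10 rose, the same 5 genes and sr, and none fell, where 33.3% of all genes rose and 22% fell. Hr38 passed the filter on low values there only through the libraries where it was high, and its limma call was lost with no filter.

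**Figure D1:**
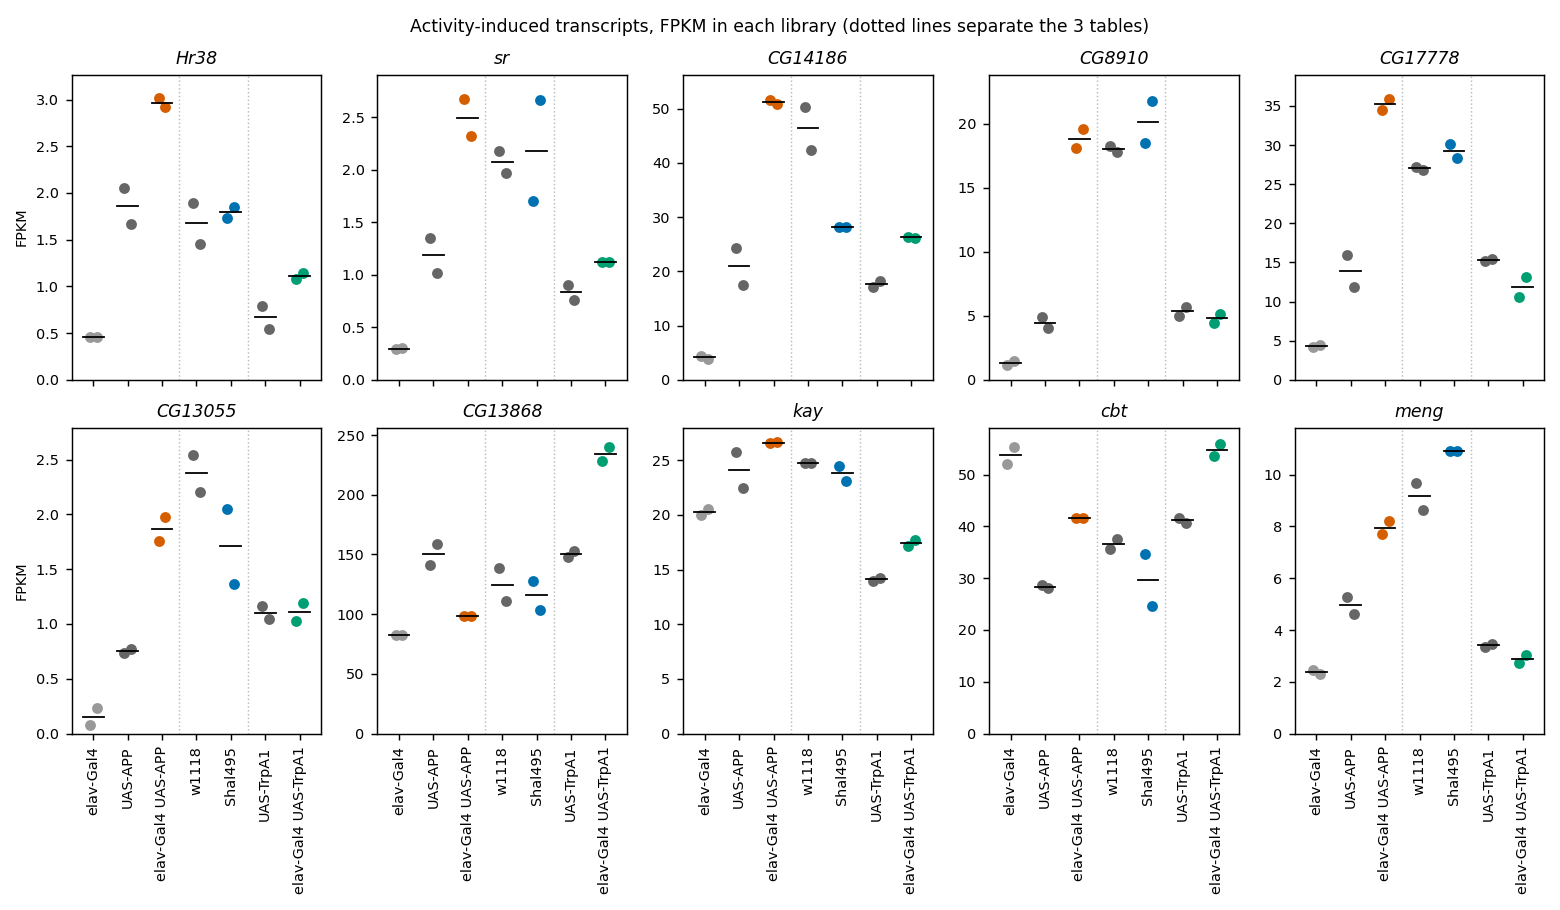
FPKM of each activity-induced transcript (y axis, linear from 0) in each of the 14 libraries by group (x axis), with points for libraries, bars for group means of 2 libraries and dotted lines between the 3 tables. In the APP table Hr38 runs from 0.458 in the driver control to 3.01 in elav-Gal4 UAS-APP, while cbt is highest in the driver control at 55.3; relative to neuronal genes Hr38 is lowest in elav-Gal4 UAS-APP.

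Hr38 encodes the fly nuclear receptor of the Nur type, a transcription factor that acts without a classical ligand and works beside the ecdysone receptor partner usp. Its level was 0.458 and 0.462 FPKM with the driver alone, 2.06 and 1.67 in the UAS-APP control, and 3.01 and 2.92 in elav-Gal4 UAS-APP. The 3 groups did not overlap, and the driver control was the lowest. The mean in elav-Gal4 UAS-APP was 6.44-fold that of the driver control (log2 change less the median 1.01 ± 0.11, SE, adjusted p = 1.25e-05) and 1.59-fold that of the UAS-APP control (0.30 ± 0.11, adjusted p = 0.00641). Relative to the neuronal list it fell by 1.14 and 1.19 on the log2 scale in the same comparisons, and with median centring the rise over the UAS-APP control was not called (adjusted p = 0.0893).

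In the Shal495 table Hr38 stood at 1.89 and 1.45 FPKM in w1118 and at 1.73 and 1.85 in Shal495, so the groups overlapped (change less the median 0.14 ± 0.18, adjusted p = 0.873). In the TrpA1 table it stood at 0.787 and 0.548 FPKM in the UAS-TrpA1 control and 1.08 and 1.14 in elav-Gal4 UAS-TrpA1. Both libraries with the driver lay above both controls, by 1.66-fold in the means (0.50 ± 0.12, adjusted p = 0.0426). There Hr38 passed the filter on low values through the elav-Gal4 UAS-TrpA1 libraries alone. The call was lost without either of those libraries (adjusted p = 0.111 and 0.149), without UAS-TrpA1 replicate 2 (0.123) and with no filter (0.0568), while voom on recovered fragments gave a log2 change of 0.78 with an adjusted p of 0.000174. Per 1000 FPKM of the neuronal list, Hr38 was 2.03 ± 0.099 (SD) against 1.02 ± 0.255.

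sr, or stripe, encodes the fly zinc finger factor of the EGR family, known in development for tendon cells and in neurons as an early response gene. It stood at 0.294 and 0.301 FPKM with the driver alone, 1.35 and 1.01 in the UAS-APP control and 2.67 and 2.32 in elav-Gal4 UAS-APP. The groups followed the order of Hr38 without overlap. The mean in elav-Gal4 UAS-APP was 8.39-fold that of the driver control (1.00 ± 0.13, adjusted p = 2.37e-05) and 2.11-fold that of the UAS-APP control (0.51 ± 0.13, adjusted p = 0.0018), but relative to the neuronal list sr fell by 0.76 and 0.79 on the log2 scale.

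Among the Shal495 libraries sr was at 2.18 and 1.97 FPKM in w1118 and at 1.70 and 2.66 in Shal495, on either side of the controls (adjusted p = 0.944). In the TrpA1 table it stood at 0.905 and 0.761 FPKM in the control and 1.12 in both libraries with the driver, 1.35-fold in the means. The groups did not overlap but the difference was not called (0.37 ± 0.10, adjusted p = 0.125), and sr too passed the filter through the elav-Gal4 UAS-TrpA1 libraries alone. It was called with median centring (adjusted p = 0.0199), quantile normalization (0.00876) and voom on recovered fragments (0.00832).

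kay encodes the fly Fos protein, which pairs with Jra, the fly Jun, to form AP-1. It was the steadiest of the set, with a span over the 14 libraries of 1.91-fold, from 14 to 26.7 FPKM. The driver control held 20.0 and 20.6 FPKM, the UAS-APP control 25.8 and 22.5, and elav-Gal4 UAS-APP 26.5 and 26.7. The mean in elav-Gal4 UAS-APP was 1.31-fold that of the driver control (adjusted p = 0.00278), which is a change of -0.05 ± 0.078 less the median of all genes, and with median centring kay was lower instead (-0.18). Against the UAS-APP control the ratio of 1.10 was not called (adjusted p = 0.148), but it was called without UAS-APP replicate 1 (adjusted p = 0.00541). Relative to the neuronal list kay fell by 3.42 and 1.74 on the log2 scale.

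In the Shal495 table kay stood at 24.8 FPKM in both w1118 libraries and at 24.5 and 23.1 in Shal495 (0.01 ± 0.087 less the median, adjusted p = 0.77). With TrpA1 it rose from 14 and 14.2 to 17.2 and 17.7 FPKM, 1.24-fold (0.45 ± 0.053, adjusted p = 0.00384). The libraries with the driver were both the higher ones.

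cbt, or cabut, encodes a zinc finger factor of the TIEG type that is under control of the circadian clock and of sugar sensing. Relative to total RNA it was the single member that fell against the driver control, with 52.1 and 55.3 FPKM with the driver alone, 28.6 and 28.1 in the UAS-APP control, and 41.5 and 41.6 in elav-Gal4 UAS-APP. The driver control was the highest group and elav-Gal4 UAS-APP lay between the controls. The mean in elav-Gal4 UAS-APP was 0.774 of the driver control (-0.79 ± 0.059, adjusted p = 0.000786) and 1.47-fold the UAS-APP control (0.37 ± 0.059, adjusted p = 0.000122), the latter turning into a fall of -1.32 relative to the neuronal list.

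Between w1118 and Shal495 cbt stood at 35.6 and 37.7 FPKM in w1118 and at 34.7 and 24.6 in Shal495, where replicate 2 was the lower (-0.24 ± 0.18, adjusted p = 0.405). Between the TrpA1 groups it rose from 41.7 and 40.7 to 53.7 and 55.8 FPKM, 1.33-fold (0.56 ± 0.043, adjusted p = 0.000345). Of 15 clock genes and partners of steroid receptors tested there, 3 clock genes rose as well and 6 genes fell, cry among them. Of all genes, 16.6% rose and 43.9% fell. tim, which encodes the light-sensitive partner of period, was 111 ± 0.853 against 53.6 ± 0.582 FPKM (mean ± SD), vri was 65.7 ± 0.563 against 41.4 ± 0.914, and Pdp1 was 33.4 ± 1.03 against 22.2 ± 0.0871, all called. No label gives the time of day at which flies were taken, and its part in the change of cbt was not tested.

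meng encodes a serine/threonine protein kinase. It stood at 2.44 and 2.32 FPKM with the driver alone, 5.28 and 4.63 in the UAS-APP control and 7.70 and 8.20 in elav-Gal4 UAS-APP. The groups were apart in the order of Hr38 and sr, and the mean in elav-Gal4 UAS-APP was 3.34-fold the driver control (0.98 ± 0.097, adjusted p = 6.2e-06) and 1.60-fold the UAS-APP control (0.42 ± 0.097, adjusted p = 0.000976), but relative to the neuronal list it fell by 2.08 and 1.18. For Shal495 and its w1118 controls it was 9.69 and 8.63 FPKM in w1118 and 10.9 in both Shal495 libraries (adjusted p = 0.347). Among the TrpA1 libraries it was 3.36 and 3.45 FPKM in the control and 2.73 and 3.05 with the driver (adjusted p = 0.116), a difference whose sign turned with median centring (0.01).

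Among the genes with systematic names, CG14186, CG8910 and CG17778 had the largest changes of the set on the log2(FPKM + 1) scale in both comparisons of elav-Gal4 UAS-APP with its controls, though CG13055 and sr exceeded CG17778 in FPKM ratio over the driver control, and CG13055 exceeded CG14186 in voom. CG14186 stood at 4.47 and 3.87 FPKM with the driver alone, 24.4 and 17.5 in the UAS-APP control and 51.5 and 50.9 in elav-Gal4 UAS-APP. The experimental libraries were the highest and the driver control the lowest, a 12.3-fold difference in means (2.91 ± 0.14, adjusted p = 6.16e-07), against 2.45-fold over the UAS-APP control (1.10 ± 0.14, adjusted p = 0.000136), while relative to the neuronal list the changes were -0.19, not called, and -0.56. With TrpA1 CG14186 was 17.1 and 18.2 FPKM in the control and 26.3 and 26.2 with the driver, 1.49-fold (0.71 ± 0.053, adjusted p = 0.000222).

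CG14186 also had the lowest p of the set in the Shal495 table. It stood at 50.3 and 42.4 FPKM in w1118 and 28.2 in both Shal495 libraries, a ratio of 0.609 (-0.62 ± 0.11, adjusted p = 0.0602). The difference missed the threshold, and it was called when genes under FPKM 5 were left out (adjusted p = 0.0461). CG14186 lies on 3L at 20098084 to 20103827 (BDGP6), 514 kb from Shal. Of 201 genes tested within 1 Mb of Shal, 5 rose and 4 fell in Shal495, where 228 of all 9628 genes (2.37%) were called in either direction. The median change of the 201 was -0.01 less that of all genes.

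CG8910 stood at 1.19 and 1.43 FPKM with the driver alone, 4.91 and 4.03 in the UAS-APP control and 18.1 and 19.6 in elav-Gal4 UAS-APP. The groups were far apart, by 14.4-fold (2.67 ± 0.11, adjusted p = 3.15e-07) and 4.21-fold (1.69 ± 0.11, adjusted p = 6.87e-06) over the respective controls. Relative to the neuronal list these differences were 0.03 and 0.21 on the log2 scale, neither called. Among the Shal495 libraries it was 18.3 and 17.8 FPKM in w1118 and 18.5 and 21.8 in Shal495 (adjusted p = 0.533), and among the TrpA1 libraries 5.01 and 5.72 in the control and 4.43 and 5.17 with the driver, where the groups overlapped (adjusted p = 0.271).

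CG17778 stood at 4.13 and 4.39 FPKM with the driver alone, 16.0 and 11.8 in the UAS-APP control and 34.5 and 35.8 in elav-Gal4 UAS-APP. The order was that of CG8910, with 8.26-fold (2.35 ± 0.13, adjusted p = 8.42e-07) and 2.53-fold (1.13 ± 0.13, adjusted p = 6.86e-05) over the controls, but relative to the neuronal list CG17778 fell by 0.77 and 0.52. Between w1118 and Shal495 it was 27.2 and 26.9 FPKM in w1118 and 30.1 and 28.4 in Shal495 (adjusted p = 0.534). Between the TrpA1 groups it was 15.1 and 15.4 FPKM in the control and 10.5 and 13.1 with the driver. The fall to 0.773 of the control was called (-0.19 ± 0.098 less the median, adjusted p = 0.02), but not with median centring (adjusted p = 0.187), with no filter (0.0647), relative to the neuronal list (0.326), or without UAS-TrpA1 replicate 1 (0.104) or 2 (0.124).

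CG13055 was the scarcest of the set, with 4 fragments in driver control replicate 1. Its level was 0.0743 and 0.236 FPKM with the driver alone, 0.731 and 0.772 in the UAS-APP control and 1.76 and 1.98 in elav-Gal4 UAS-APP. The groups did not overlap, but the gene passed the filter in that table only through the experimental libraries. The mean was 12-fold the driver control (0.89 ± 0.12, adjusted p = 3.54e-05) and 2.49-fold the UAS-APP control (0.54 ± 0.12, adjusted p = 0.00136), and relative to the neuronal list the changes were -0.11 and -0.53, neither called. The ratio to the driver control was 7.9 without driver control replicate 1 and 25.1 without replicate 2. The level was 2.54 and 2.21 FPKM in w1118, 2.05 and 1.37 in Shal495 (adjusted p = 0.451), and 1.17 and 1.04 against 1.02 and 1.19 in the TrpA1 table, where the groups overlapped.

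CG13868 was the most abundant, from 82.2 to 240 FPKM over the 14 libraries. In the APP table it was highest in the UAS-APP control at 141 and 159 FPKM, against 82.5 and 82.2 in the driver control and 98.5 and 98.3 in elav-Gal4 UAS-APP. The experimental libraries stood above the driver control by 1.20-fold (adjusted p = 0.0102), a call that was lost when any of these 4 libraries was left out (adjusted p = 0.0579 to 0.0641) and that turned into a fall with median centring (-0.31). Quantile normalization instead gave a rise of 0.52 over the driver control (adjusted p = 6.64e-05, limma). The experimental libraries stood below the UAS-APP control at a ratio of 0.656 (-0.77 ± 0.069, adjusted p = 0.000149).

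Among the TrpA1 libraries CG13868 had the largest change of the set on the log2(FPKM + 1) scale, below Hr38 in FPKM ratio and in voom, from 148 and 153 FPKM in the control to 228 and 240 with the driver, 1.56-fold (0.80 ± 0.039, adjusted p = 2.97e-05). Both libraries with the driver were far above both controls. For Shal495 and its w1118 controls it was 138 and 111 FPKM in w1118 and 128 and 104 in Shal495, where the groups overlapped (adjusted p = 0.773).

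**Figure D2:**
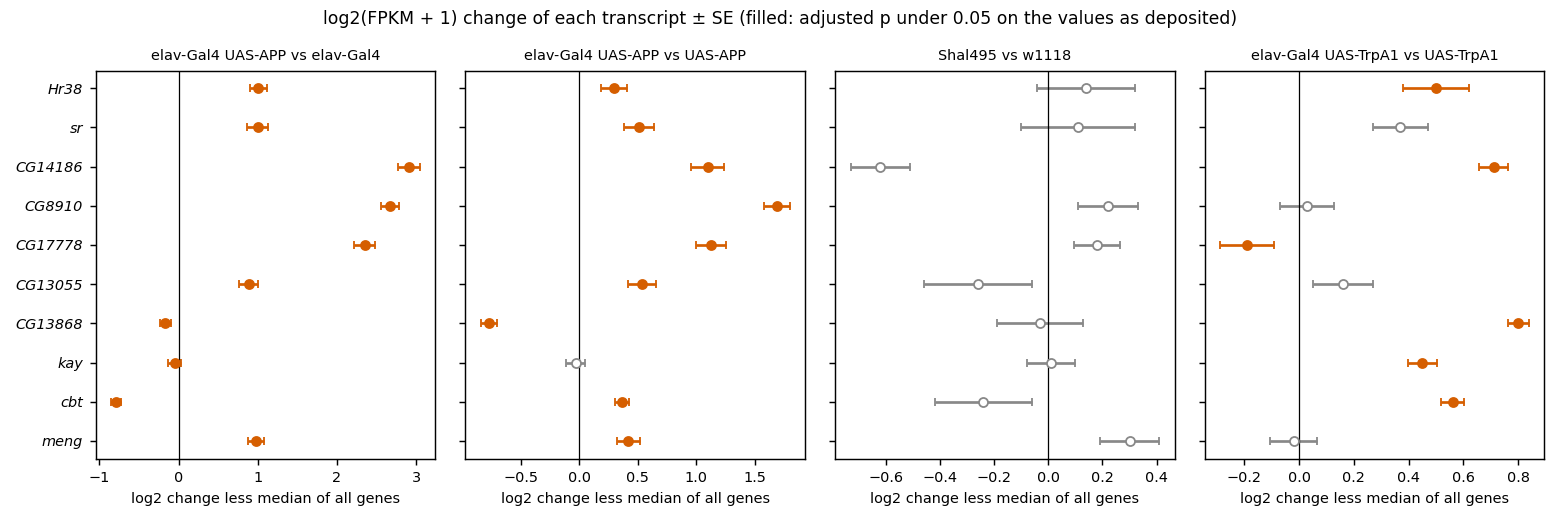
Change of each transcript (rows) in 4 comparisons (panels) as log2(FPKM + 1) less the median of all genes tested (x axis), with SE bars and filled points for adjusted p under 0.05 by limma on the change before subtraction, n = 2 per group. CG14186, CG8910 and CG17778 lie at 2.35 to 2.91 against the driver control, none of the points in Shal495 is filled, and CG13868 leads in TrpA1 at 0.80 on this scale. Scaled to neuronal genes instead, none of the 10 rises in the APP comparisons. CG13055 in the APP panels, and Hr38 and sr in the TrpA1 panel, passed the filter on low values only through the libraries where they were high.

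Within a library, the set split by how it followed the neuronal list. Per 1000 FPKM of that list, CG17778 spanned 1.79-fold over all 14 libraries, sr 1.85-fold, CG8910 1.97-fold and CG14186 2.53-fold, whereas their FPKM spanned 8.67-fold, 9.07-fold, 18.3-fold and 13.3-fold. For CG8910 the values were 8.21 and 9.80 with the driver alone, 7.52 and 8.47 in the UAS-APP control and 8.81 and 9.67 in elav-Gal4 UAS-APP. On that scale the driver control overlapped both other groups, while elav-Gal4 UAS-APP lay above the UAS-APP control. In FPKM none of the 3 groups overlapped.

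kay, cbt and CG13868 behaved the other way, with FPKM spans of 1.91-fold, 2.26-fold and 2.92-fold and spans relative to the neuronal list of 10.9-fold, 22.6-fold and 11.9-fold. cbt stood at 360 and 378 per 1000 FPKM of the list with the driver alone, 43.8 and 58.9 in the UAS-APP control and 20.2 and 20.5 in elav-Gal4 UAS-APP. All 3 of these genes were highest on that scale in the driver control, whose neuronal sum was the lowest. Hr38, CG13055 and meng lay between, at 4.18-fold, 4.27-fold and 4.51-fold. These spans are descriptions over libraries that share the list as denominator, and no p is given. They cross the tables, so differences between tables enter them. The neuronal sum itself ran from 145 to 2050 FPKM, so a gene that is steady in FPKM must span widely relative to it.

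**Figure D3:**
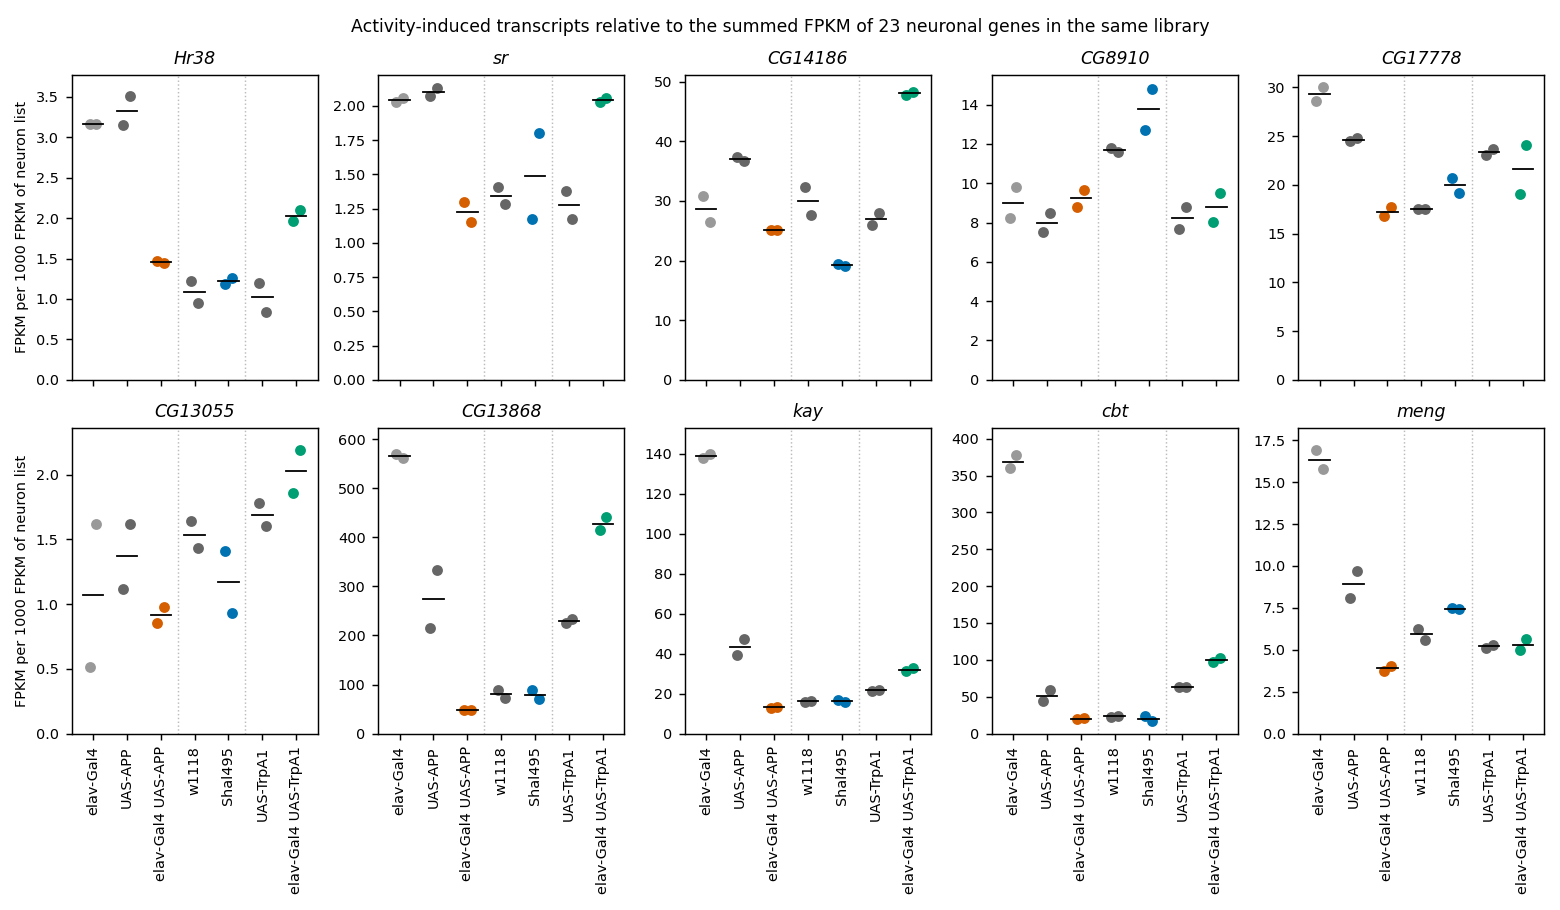
FPKM of each transcript per 1000 FPKM of 23 neuronal genes in the same library (y axis, linear from 0) in each library by group (x axis), with points for libraries and bars for group means of 2 libraries. CG8910 stays between 7.52 and 14.8 in all libraries, while cbt reaches 378 in the driver control.

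**Figure D4:**
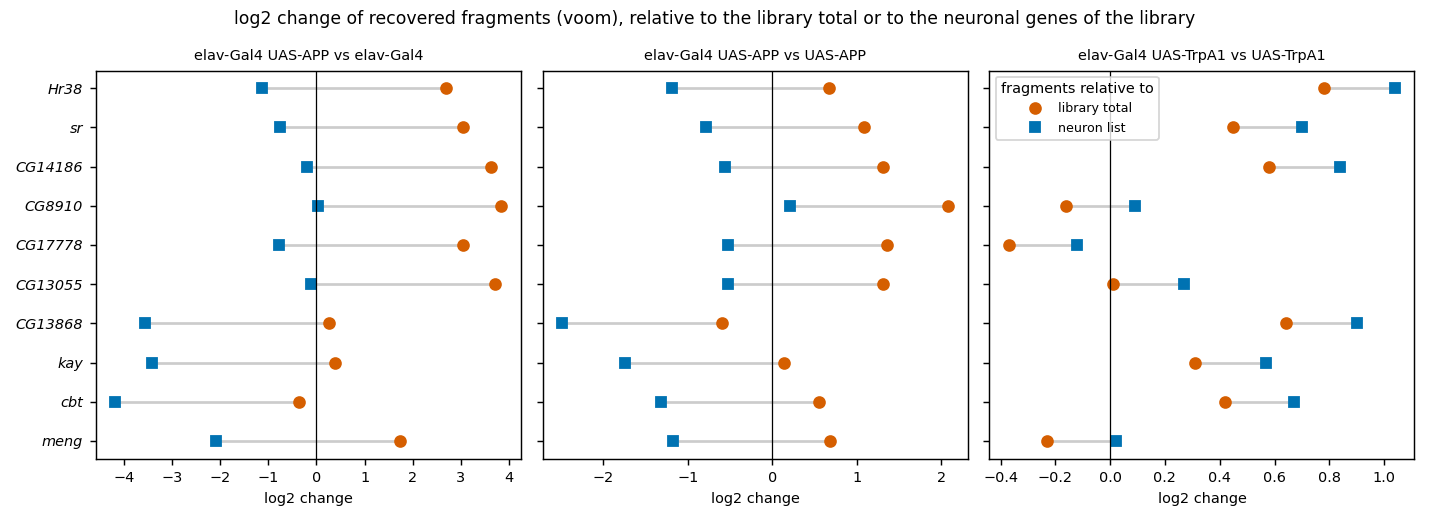
log2 change of each transcript (rows) in 3 comparisons (panels) from voom on recovered fragments, relative to the library total (circles) and to the neuronal list (squares), n = 2 per group. Against the driver control, Hr38 goes from 2.68 to -1.14 and CG8910 from 3.84 to 0.03, and in TrpA1 Hr38 goes from 0.78 to 1.04.

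In elav-Gal4 UAS-TrpA1 the choice of denominator moved the set the other way from the APP table, because the neuronal sum was lower in the libraries with the driver. Relative to that list the log2 changes were 1.04 ± 0.17 for Hr38, 0.70 ± 0.15 for sr, 0.84 ± 0.056 for CG14186, 0.90 ± 0.039 for CG13868, 0.57 ± 0.048 for kay and 0.67 ± 0.046 for cbt, all called. CG8910 at 0.09, meng at 0.02, CG13055 at 0.27 and CG17778 at -0.12 were not called. Photoreceptor, heat shock and glial genes were also unequal there. The sum of 17 photoreceptor genes was 36800 and 37600 FPKM with the driver against 24500 in both control libraries, and that of 12 heat shock genes was 1220 and 1240 against 885 and 882. The sum of 9 glial genes was 1220 and 1230 FPKM against 1760 and 1780. Of those tested, relative to total RNA, 11 photoreceptor genes rose and 5 of 17 fell. 6 heat shock genes rose and 3 of 10 fell, and 8 of 9 glial genes fell. Of all genes, 16.6% rose and 43.9% fell. The part of these lists in the changes of the set was not tested.

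Directions of the following lists in the APP table are relative to total RNA, as for the set itself. Of 27 genes for calcium, cAMP and ERK signals, the route from firing to early genes, the test against the driver control called 23 higher and 1 lower in elav-Gal4 UAS-APP, and that against the UAS-APP control called 24 higher and 1 lower, where 56.5% and 46.1% of all genes rose. In the fit on recovered fragments relative to the neuronal list, none of 26 tested rose in either comparison, and 26 and 25 fell. In that fit 1.34% and 4.08% of all genes rose and 89.1% and 81.8% fell. CanB, the regulatory subunit of calcineurin, averaged 85.2 ± 0.543 FPKM, with 8.24 ± 0.527 under the driver alone and 32.0 ± 3.85 in UAS-APP flies. NFAT, a transcription factor of the Rel type, was 19.6 ± 0.381 against 4.39 ± 0.0763 and 6.76 ± 0.877. The median of the list less that of all genes was 0.61 and 0.59. In elav-Gal4 UAS-TrpA1 none of the 27 rose and 19 fell, where 43.9% of all genes fell. Relative to the neuronal list 5 of 26 rose and 10 fell, where 33.3% of all genes rose and 22% fell. Among those that fell was CaMKII, the calcium-dependent kinase of synapses, at 64.1 ± 3.75 against 89.8 ± 1.52 FPKM, and the list median was -0.14 less that of all genes. In Shal495 none of the 27 was called by limma, with 3 at an unadjusted p under 0.05, and voom called 0.

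Of 15 tested genes among AP-1, JNK and stress early genes, the comparison with the driver control called 7 higher and 6 lower, that with the UAS-APP control 7 higher and 7 lower, and elav-Gal4 UAS-TrpA1 held 7 higher and 3 lower. Of all genes, 56.5% rose and 27.5% fell in the first of these, 46.1% and 30.7% in the next, and 16.6% and 43.9% in the last. With the neuronal list as denominator, all 16 tested in that fit fell in both APP comparisons, and 10 rose and 2 fell with TrpA1. Of all genes in that fit, 89.1% and 81.8% fell in the APP comparisons, and 33.3% rose and 22% fell with TrpA1. bsk, the fly JNK, rose relative to total RNA in both APP comparisons but fell by 2.26 and 0.66 relative to the neuronal list, at 92.8 ± 0.347 FPKM against 31.7 ± 0.61 and 40.1 ± 4.13, and fell in the TrpA1 comparison, at 43.8 ± 2.65 against 69.5 ± 1.12. Gadd45, a stress gene, fell against the UAS-APP control, at 5.46 ± 0.733 against 14.4 ± 0.915 FPKM, and rose in TrpA1, at 20.9 ± 0.618 against 14.8 ± 0.138. Xrp1, a stress-induced bZIP factor, was 66.2 ± 1.48 against 51.7 ± 0.308 FPKM in TrpA1. In Shal495 none of the 15 was called by limma, with 2 at an unadjusted p under 0.05, and voom called 0 of 16.

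Among clock genes and the partners of steroid receptors, 17 were tested in the APP table and 15 in the TrpA1 table. The driver control comparison called 15 higher and 1 lower, the UAS-APP comparison 12 higher and 2 lower, and elav-Gal4 UAS-TrpA1 had 3 higher and 6 lower, against the same shares of all genes. On the scale of the neuronal list, of 18 tested, none rose and 14 fell in the first. In the next 3 rose and 14 fell, and 6 rose and 2 fell with TrpA1. Of all genes on that scale, 1.34% rose and 89.1% fell in the first, 4.08% and 81.8% in the next, and 33.3% and 22% with TrpA1. per, the clock repressor, averaged 35.4 ± 0.308 FPKM in elav-Gal4 UAS-APP, 6.86 ± 0.228 with the driver alone and 13.8 ± 0.538 in UAS-APP flies. Relative to total RNA tim went the other way from per against UAS-APP flies, while relative to the neuronal list both fell, at 63.1 ± 0.739 FPKM and 126 ± 2.76. cry, the blue light receptor of the clock, fell in the TrpA1 comparison, from 139 ± 1.64 to 110 ± 0.691 FPKM, but was not called relative to the neuronal list (-0.06). In Shal495 limma called none of 17, with 1 at an unadjusted p under 0.05, and voom 0 of 18.

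2 genes of the set share exon bases with a gene on the opposite strand, and no strand marking is stated, so fragments there could be counted for either gene. Hr38 (2L, 20683462 to 20714588) shares 168 bases, 2.18% of its exon bases, with CG2617, which lay between 1.17 and 3.36 FPKM in all libraries. CG8910 (16874724 to 16895652 on 2R) shares 254 bases, 7.46%, with CG6435. CG6435 went against CG8910 in the APP table, at 69.6 and 72.3 FPKM with the driver alone, 50.9 and 56.3 in the UAS-APP control and 29.6 and 25.8 in elav-Gal4 UAS-APP. Of the rest, CG17778 lies at 494614 to 496369 on X, CG13055 at 16249560 to 16252355 on 3L and CG13868 at 20308777 to 20316917 on 2R. The remaining positions are 18090803 to 18135583 on 3R for sr, 29765995 to 29794113 on 3R for kay, 476446 to 479688 on 2L for cbt and 6742502 to 6756133 on 2L for meng.

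The genes nearest in pattern were sought among 6238 genes tested in all tables with a mean of 5 FPKM or more in a group of each, by the Euclidean distance of their 4 log2 changes. XRCC1 and CG12024 were nearest to Hr38, at 0.112 and 0.183, and cdm and CG1636 to sr, at 0.094 and 0.158. Hr38 and sr themselves lay under 5 FPKM, where the added 1 shrinks log2 changes, so these genes are near on the log2(FPKM + 1) scale only. Against the driver control XRCC1 changed by 1.43 and cdm by 1.38 on that scale. Voom on recovered fragments gave 2.68 for Hr38 and 3.05 for sr. Pcyt1 and CG5913 were nearest to kay, at 0.128 and 0.152. Stat92E and PGRP-SD were nearest to cbt, at the longer distances of 0.243 and 0.345. 2 of the 4 comparisons share the elav-Gal4 UAS-APP libraries, so the distance counts those libraries more than others.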

How the data were processed

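The authors deposited FPKM per gene and library in 3 tables, per the file headers. The submitters' processing notes name BDGP6, Bowtie2 2.2.3, HISAT2 2.1.0 and TopHat2, and the tool that computed FPKM was not found in those notes. Identifiers matched symbols for 99.1% of genes. FPKM times exon length of the Ensembl annotation gave whole fragments, within 0.02, for 98.8% to 99.0% of values per library, and voom was run on these, keeping genes that reached 10 fragments in 2 libraries.

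The test was limma 3.58.1 in R 4.3.3, two-sided, using moderated variances with a trend on log2(FPKM + 1), and all 3 APP groups shared a fit. Tested on simulated data with 100 genes changed at a log2 size of 1 and 100 at 2, it recovered 100% at each size, with 12 false calls of 9371 genes for elav-Gal4 UAS-APP against the driver control, 11 of 9705 for Shal495 and 19 of 8751 for TrpA1. The changed genes were drawn from those with a mean of 5 FPKM or more, so the recovery does not cover Hr38, sr or CG13055, or meng in the TrpA1 table. In the deposited values, 8291 of 9866 genes were called for elav-Gal4 UAS-APP against the driver control. The number of false calls with that many changed genes, or with unequal RNA makeup between groups, was not tested. The simulated dispersion of 0.005 is an assumption and was the same for each table, although replicates of UAS-APP, w1118 and Shal495 were the most spread. The recovery therefore does not tell how often a change of that size would be called in Shal495. Replicates spread beyond sampling noise, with a chi-square per gene of 2.15 to 4.83 for elav-Gal4 UAS-APP, the driver control and both TrpA1 groups and 24.9 to 30.8 in the others.

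All 10 genes are named in each comparison. From each gene list, up to 4 called genes with the smallest adjusted p could be named. Members and lists were chosen with earlier results of these data known. A search of promoters for motifs was not run. Python 3.11.15, pandas 2.3.3, numpy 2.4.6 and matplotlib 3.10.9 were used.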

Additional observations from a re-analysis of the deposited data

How the results depend on the processing

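Of 774 recomputed changes of single transcripts, 643 kept their direction and side of the threshold, 53 lost and 8 gained a call, and 70 reversed, 28 of them with neuron scaling (subtracting each library's mean log2 level of the neuronal list) and 24 with voom and neuron scaling, which was chosen after seeing the data. The former can overstate falls of scarce genes, since the added 1 shrinks their own changes more than those of well expressed genes of the list. Weak genes of the list, such as fne at 1.36 FPKM with the driver alone, are shrunk as well. The fits also differ because the former takes the mean log2 level of the list and the latter its summed FPKM. The part of each was not tested.

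With neuron scaling the changes against the driver control were -2.03 for Hr38, -2.05 for sr, -0.14 for CG14186, -0.37 for CG8910, -0.69 for CG17778, -2.16 for CG13055, -3.22 for CG13868, -3.10 for kay and -2.07 for meng, and with voom -1.14, -0.76, -0.19 (CG14186), -0.77 (CG17778), -0.11 (CG13055), -3.56 (CG13868), -3.42 (kay) and -2.08 (meng). Against the UAS-APP control they were -1.47 for Hr38, -1.26 for sr, -0.67 for CG14186, -0.08 for CG8910, -0.65 for CG17778, -1.23 for CG13055, -1.80 for kay, -1.40 for cbt and -1.35 for meng, and with voom -1.19, -0.79, -0.56 (CG14186), -0.52 (CG17778), -0.53 (CG13055), -1.74 (kay), -1.32 (cbt) and -1.18 (meng). Between the controls they were 0.57 for Hr38, 0.79 for sr, 0.29 for CG8910, 0.05 for CG17778, 0.93 for CG13055, 0.68 for CG13868, 1.30 for kay and 0.72 for meng, and with voom 0.19 (CG8910), 0.26 (CG17778), 1.07 (CG13868), 1.69 (kay) and 0.90 (meng), with 4 transcripts called. In TrpA1 CG8910 became 0.19 and meng 0.15, or 0.09 and 0.02 with voom, and in Shal495 kay became 0.02 with voom.

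Median centring gave -0.31 for CG13868 and -0.18 for kay against the driver control, -0.12 for kay against the UAS-APP control, 0.07 for kay between the controls, 0.00 for kay in Shal495, and 0.05 for CG8910 and 0.01 for meng in TrpA1. Quantile normalization gave -0.02 for kay against the UAS-APP control and 0.06 for CG8910 and 0.04 for meng in TrpA1. A pseudocount of 0.1 gave -0.00 for CG13055 in TrpA1. The cause was not tested where no construction of the setting shows it.

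A fold minimum of 2 left 4227 of 8291 called genes against the driver control and 2882 of 7572 against the UAS-APP control. It left 1344 of 6545 between the controls and 556 of 5439 in TrpA1. Of the set, 3 stayed called against the UAS-APP control, 3 between the controls and 0 in TrpA1. Against the driver control Hr38, sr, CG14186, CG8910, CG17778, CG13055 and meng stayed called, and CG13868, kay and cbt did not. In Shal495, 24 genes were called without a filter, against 228, and a filter at FPKM 5 called 1 transcript of the set, CG14186. Leaving out 1 library gave 21 to 138 called genes in Shal495, lowest without Shal495 replicate 2. It reversed uncalled changes of Hr38 (range -0.05 to 0.19), sr (-0.18 to 0.25) and CG13868 (-0.26 to 0.06) in Shal495 and of CG13055 (-0.06 to 0.06) in TrpA1.

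Replicate numbers did not pair the libraries, since differences between replicates correlated at -0.033 to 0.018 between groups. With the number as a replicate block, 96 genes were called in Shal495 and 8257, 7528, 6485 and 5358 in the other comparisons, and Hr38 in TrpA1 was not called (adjusted p = 0.0561). Replicates of UAS-APP, w1118 and Shal495 were the most spread, and with only the 2 controls of the APP table in the fit kay was not called between them (adjusted p = 0.0643).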
